A study of Mus musculus with 4 samples.

Results

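Peaks called for H3K23pr, the propionylation of lysine 23 of histone H3, were examined in gene deserts, the long stretches of the mouse genome without protein-coding genes. A called peak belonged to this set when its summit lay on chromosomes 1 to 19, outside every protein-coding gene and more than 500 kb from the start and end of each one in the RefSeq gene table of GRCm38, the assembly of mm10. Of the 96304 peaks in both deposited lists, 6628 met this rule, 3045 of the 41907 peaks in the KO list and 3583 of the 54397 peaks in the WT list.

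The chromatin came from livers of male C57BL/6 mice, with 1 immunoprecipitate (IP) and 1 input without antibody per genotype. KO liver carried a hepatocyte-specific RPN11 knockout, and WT liver, named so after the sample titles, was RPN11 flox/flox without it. RPN11, encoded by Psmd14, is the subunit of the proteasome lid that removes ubiquitin chains from substrates, and the series concerns fatty liver disease. Other liver cell types keep RPN11 in a hepatocyte-specific knockout, and the Cre driver, the age and the number of mice were not given in the sources used here. After duplicate filtering the KO IP held 15468265 fragments and the WT IP 13615838, with mean fragment sizes of 71 bp and 97 bp. With 1 library per genotype, no difference between KO and WT had a replicate check and none was tested.

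Histone propionylation is a short-chain acyl mark made from propionyl-CoA, and marks of this kind are known mainly from active promoters and enhancers. Gene deserts are poor in such elements, although deserts beside developmental regulators can hold distant enhancers. They are also known to be AT-rich and to lie in large part in late-replicating, inactive chromatin. A desert therefore shows what a peak list looks like far from most annotated promoters.

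The rule gave 249 deserts with 201 Mb in all, 8.38% of the 2404 Mb searched. Of these, 246 lay between protein-coding genes and 3 at the start of a chromosome, and the median length after removal of the 500 kb margins was 493 kb. They were not empty of annotation. RefSeq placed 1202 other genes wholly or in part within them. These included 276 lncRNA genes, 21 miRNA genes, 563 pseudogenes of all kinds and 308 immunoglobulin or T cell receptor gene segments, in part pseudogenes themselves.

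Short sequences are shown for the annotated starts and small RNAs of the deserts that had a called peak on or near them. Of 231 RefSeq promoter windows in deserts, each running from 250 bases before to 50 after a gene start, 1 was overlapped by a WT peak and 0 by a KO peak. The window belongs to the lncRNA gene 4930523O13Rik and lies at chr15:46496130-46496429 (GRCm38.p6, minus strand) in the desert between Kcnv1 and Csmd3. The capitals mark the 98 bases covered by the WT peak at chr15:46496146-46496243.
4930523O13Rik: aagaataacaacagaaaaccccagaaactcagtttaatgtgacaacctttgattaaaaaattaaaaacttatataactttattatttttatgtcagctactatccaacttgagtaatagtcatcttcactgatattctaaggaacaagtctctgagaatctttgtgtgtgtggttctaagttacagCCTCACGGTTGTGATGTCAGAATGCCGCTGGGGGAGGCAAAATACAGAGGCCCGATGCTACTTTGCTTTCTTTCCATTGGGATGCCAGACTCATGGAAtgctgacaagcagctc

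That peak had 4 IP fragments at its summit, the lowest number in the list, and a fold over local background of 2.90. The share of desert promoters under a peak was 0% in KO (95% interval up to 1.58%) and 0.433% in WT (0.0110 to 2.39%). Among the 31165 promoter windows outside deserts the shares were 0.273% in KO (0.218 to 0.337%) and 0.571% in WT (0.491 to 0.661%), within the desert intervals. No desert window belongs to a protein-coding gene, while those outside include protein-coding gene starts, so the sets differ in gene class. The share that random placement of the peaks would give was not computed. Whether peaks favoured or avoided promoters, in deserts or elsewhere, was therefore not tested. Intervals here and below are exact binomial or Poisson, treat peaks as independent and cover counting error only.

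Of the 21 desert miRNA genes, 4 had a KO summit within 2 kb and 1 a WT summit. Their mature sequences from RefSeq follow with the seed, bases 2 to 8, in capitals, and the 9 seeds all differ.
mmu-miR-125b-5p: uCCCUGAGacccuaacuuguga
mmu-miR-125b-2-3p: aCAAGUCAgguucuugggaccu
mmu-miR-344d-3p: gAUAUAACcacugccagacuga
mmu-miR-344d-3-5p: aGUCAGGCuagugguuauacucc
mmu-miR-344h-3p: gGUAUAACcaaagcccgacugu
mmu-miR-344h-5p: cAGGCUUCuggcuauauucc
mmu-miR-7094-3p: uACUCUGCuguucucuccaca
mmu-miR-7094b-2-5p: uCUGGAGAggauacagggucuga
mmu-miR-6350: uAGCAGGUgcauuauaaauau

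The KO peak nearest to its gene lay 660 bp from the centre of Mir125b-2, a miR-125 family gene on chromosome 16 between Usp25 and Cxadr, with 4 fragments. The WT peak lay 360 bp from Mir344h-1, with 5 fragments. Mir344h-1 is 1 of 8 Mir344 genes in a chromosome 7 desert beside Ndn, an imprinted gene of the Prader-Willi syndrome region in people. The KO peaks at Mir344d-3, Mir7094-2 and Mir6350 also had 4 fragments and lay 1787, 1561 and 1869 bp away. In KO, 19.05% of desert miRNA genes had such a peak (5.45 to 41.9%), against 4.22% of the 1115 others on these chromosomes (3.11 to 5.57%), and the intervals overlapped. In WT the shares were 4.76% (0.1205 to 23.8%) and 6.73% (5.33 to 8.36%).

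The first comparison was of density. Deserts held 15.1 peaks per Mb in the KO list, against 17.3 per Mb in the rest of chromosomes 1 to 19, and 17.8 per Mb in the WT list, against 22.6 per Mb in the rest. The ratio of desert to rest was 0.874 in KO (0.842 to 0.907) and 0.786 in WT (0.760 to 0.813). Deserts were thus less dense in peaks than the rest in both lists, by a margin larger than counting error, but far from empty. Within genes the density was 18.4 per Mb in KO and 23.9 per Mb in WT, so a desert still carried 0.821 times the KO peaks and 0.745 times the WT peaks of the same length of gene.

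Density followed the distance to the nearest gene differently in the lists. KO had 18.4 peaks per Mb inside genes, 15.1 within 10 kb of one and 17.1 at 50 to 100 kb. Beyond that it was 16.1 per Mb at 500 to 750 kb, 14.9 at 750 to 1000 kb, 14.1 at 1000 to 1500 kb and 13.4 beyond 1500 kb. The lowest KO values were thus in the deepest desert, while the 10 kb beside genes had a density close to that of the deserts as a whole. WT had 23.9 peaks per Mb inside genes, 23.1 within 10 kb and 22.0 at 50 to 100 kb. It had 18.7 per Mb at 500 to 750 kb, 15.9 at 750 to 1000 kb, 18.2 at 1000 to 1500 kb and 16.8 beyond 1500 kb. Each of the first 7 WT steps away from genes was lower than the one before, and the deepest steps had no clear order.

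**Figure D1:**
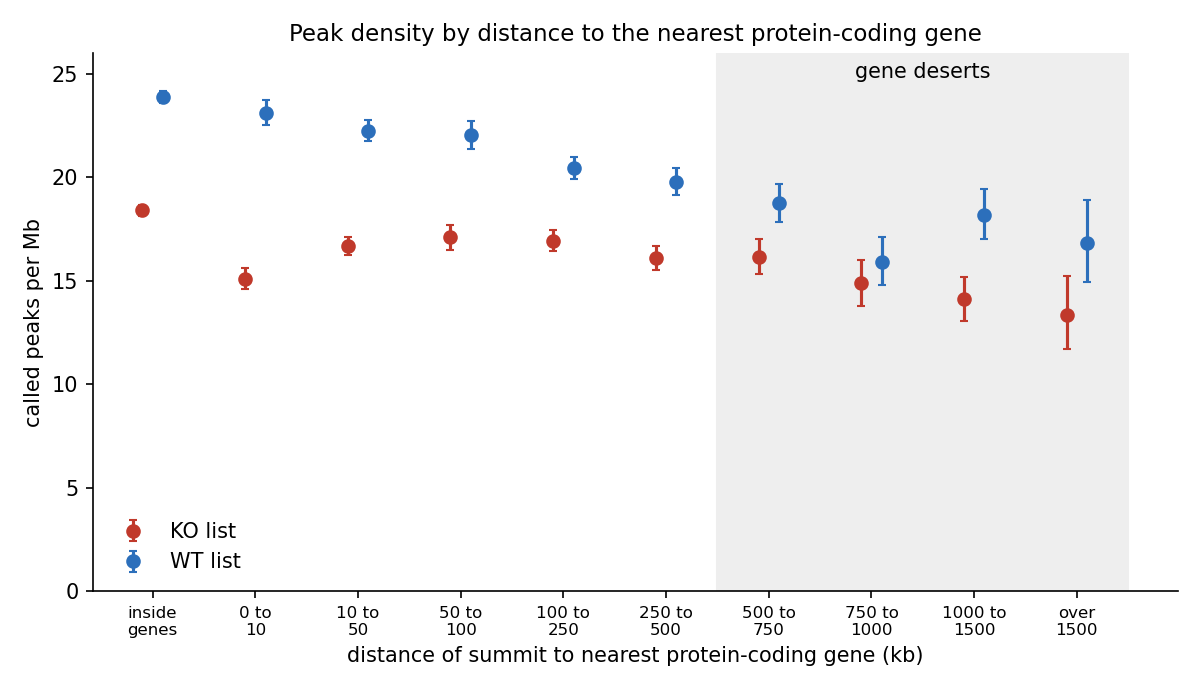
Called peaks per Mb of sequence (vertical axis) by distance of the summit to the nearest protein-coding gene in kb (horizontal axis, steps of unequal width), for the KO list (red) and the WT list (blue), with 95% Poisson intervals and the deserts shaded. KO runs from 18.4 inside genes to 13.4 beyond 1500 kb with a low of 15.1 beside genes, and WT from 23.9 to 16.8.

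The 500 kb limit fell at no visible break. At 500 to 550 kb there were 17.0 KO peaks per Mb (15.3 to 18.7), and at 450 to 500 kb 17.1 (15.6 to 18.8). In WT the values were 18.996 (17.3 to 20.9) and 18.1 (16.5 to 19.9). The 5 KO peaks nearest to the limit on the desert side, at 500.06 to 500.94 kb, had 4 to 6 fragments, and so did the 5 on the other side, at 499.29 to 499.84 kb. The corresponding WT peaks had 4 to 6 fragments on the desert side and 4 to 7 on the other.

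Desert peaks were also lower. At least 6 fragments at the summit were reached by 692 KO desert peaks, 22.7% (21.2 to 24.3%), where 29.9% of all KO peaks did, and by 917 WT desert peaks, 25.6% (24.2 to 27.1%), where 34.3% of all WT peaks did. Outside deserts the shares were 30.7% in KO (30.2 to 31.2%) and 35.2% in WT (34.8 to 35.6%). The median desert peak had 4 fragments in KO, against 5 in the rest, and 5 in both places in WT. A caller q of 0.05 or smaller was reached by 674 KO desert peaks, 22.1%, beside 27.2% of all KO peaks, and by 208 WT desert peaks, 5.81%, beside 9.53% of all WT peaks.

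The shortfall in density grew with peak height. Among peaks of 4 fragments, the lowest number called, desert density was 1.09 times that of the rest in KO (1.04 to 1.15) and 1.00 times in WT (0.951 to 1.05). At 5 fragments the ratios were 0.797 in KO and 0.777 in WT, and at 6 fragments 0.724 and 0.648. At 7 they were 0.610 in KO and 0.448 in WT. At 8 or more, with 34 KO and 80 WT desert peaks, the ratio was 0.268 in KO (0.185 to 0.377) and 0.395 in WT (0.312 to 0.493). The lowest peaks were therefore denser in deserts than elsewhere in KO and about equally dense in WT, and those of 5 or more fragments were sparser in both lists.

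The caller's local background moved with these results. The lowest common background of each list, 0.568 fragments in KO and 0.692 in WT, stood under 96.7% of KO desert peaks (96.1 to 97.3%) and 84.1% of the other KO peaks. In WT it stood under 80.4% of desert peaks (79.1 to 81.7%) and 65.5% of the others. Among peaks at that background the desert to rest ratio of density was 1.01 in KO (0.968 to 1.04) and 0.965 in WT (0.929 to 1.00), so the overall shortfall was not seen there. For peaks of 4 fragments at that background the ratio was above 1 in both lists, at 1.18 in KO (1.12 to 1.24) and 1.12 in WT (1.06 to 1.18). The difference in height remained visible: 22.0% of such KO desert peaks had at least 6 fragments, against 27.6% in the rest, and 23.5% of such WT desert peaks, against 28.8%. The length of sequence at the lowest background is not in the lists, so all ratios at that background are per Mb of all desert and all other sequence. The filter kept a larger share of desert peaks than of the others, which by itself raises these ratios. They therefore do not show that deserts are as dense as, or denser than, other sequence of the same background.

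**Figure D2:**
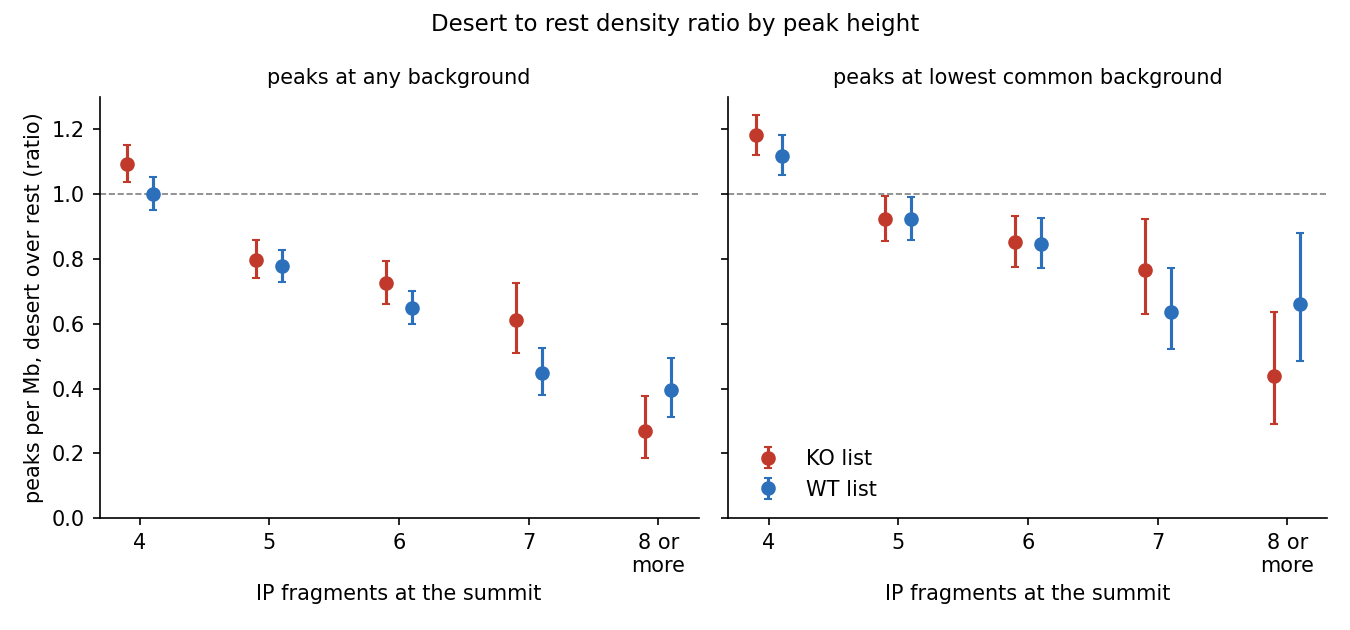
Ratio of peaks per Mb in deserts to peaks per Mb in the rest of chromosomes 1 to 19 (vertical axis) by the number of IP fragments at the summit (horizontal axis), for KO (red) and WT (blue), with 95% exact binomial intervals. The left panel takes all peaks and runs from 1.09 to 0.268 in KO and from 1.00 to 0.395 in WT, and the right panel takes only peaks at the lowest common background of their list, where it runs from 1.18 to 0.438 in KO and from 1.12 to 0.660 in WT. Both panels are per Mb of all desert and all other sequence.

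Most chromosomes showed the lower density. Deserts were sparser than the rest of the same chromosome on 15 of 19 chromosomes in KO and on 18 of 19 in WT, and the interval lay below 1 on 11 and 16 of them. The exceptions in KO were chromosomes 2, 5, 7 and 17, of which chromosome 17 alone had an interval above 1, at 1.24 (1.01 to 1.51). Chromosome 7 was the exception in WT, at 1.02 (0.835 to 1.23). Chromosome 19, with 1.51 Mb of desert, had the lowest ratios, 0.415 in KO from 7 peaks and 0.421 in WT from 10 peaks.

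**Figure D3:**
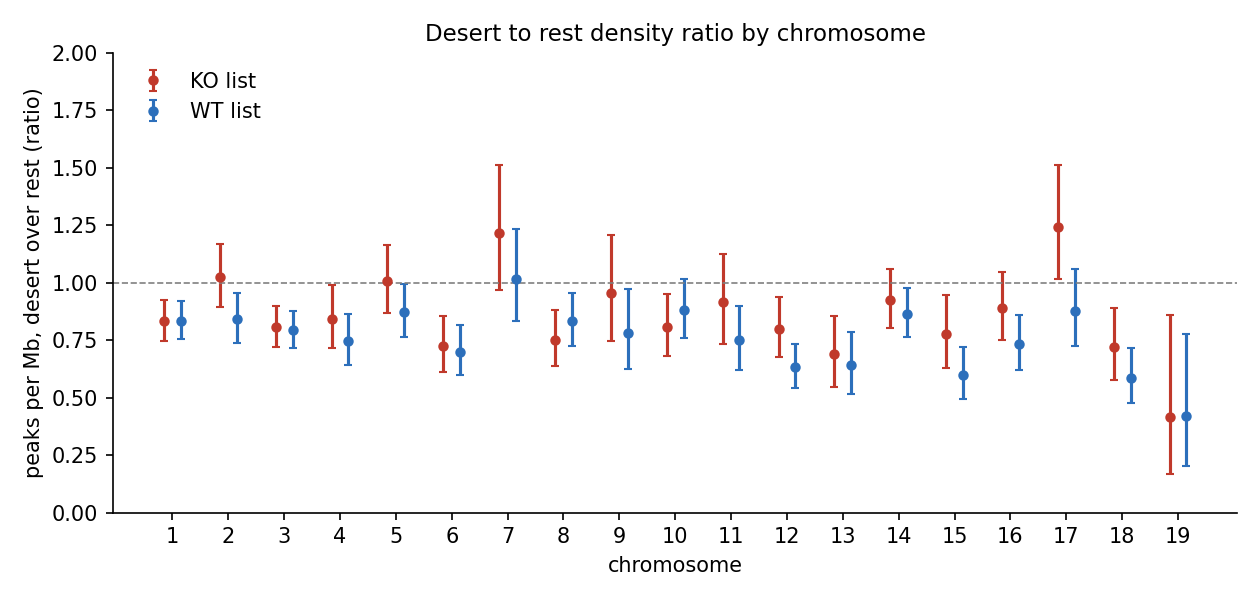
Ratio of peaks per Mb in deserts to peaks per Mb in the rest of the same chromosome (vertical axis) for chromosomes 1 to 19 (horizontal axis), in KO (red) and WT (blue), with 95% exact binomial intervals. Points lie below 1 on 15 chromosomes in KO and 18 in WT, with the lowest on chromosome 19.

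The next comparison was KO against WT. Deserts held 3045 KO and 3583 WT peaks, a ratio of 0.850 (0.810 to 0.892), and the rest held 38077 KO and 49812 WT peaks, a ratio of 0.764 (0.754 to 0.775). Put as a share of each list on these chromosomes, deserts took 7.40% of KO peaks (7.15 to 7.66%) and 6.71% of WT peaks (6.50 to 6.93%). The ratio was 0.771 inside genes, 0.653 within 10 kb of them, 0.749 at 10 to 50 kb, 0.776 at 50 to 100 kb, 0.828 at 100 to 250 kb (0.796 to 0.862) and 0.813 at 250 to 500 kb (0.775 to 0.853). Within deserts it was 0.861 at 500 to 750 kb, 0.934 at 750 to 1000 kb, 0.775 at 1000 to 1500 kb and 0.794 beyond 1500 kb. The intervals of the last steps before the deserts overlapped that of the deserts, and the deepest desert had lower ratios than those steps, so the higher ratio was not particular to deserts.

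The KO to WT ratio depended on which peaks were counted. In deserts it was 0.951 for peaks of 4 fragments (0.887 to 1.02), 0.769 for 5, 0.775 for 6 and 0.832 for 7. For 8 or more fragments it was 0.425 (0.276 to 0.642), from 34 KO and 80 WT peaks, and 0.625 (0.584 to 0.669) in the rest. At a caller q of 0.05 or smaller the order turned, with 674 KO and 208 WT desert peaks, a ratio of 3.24 (2.77 to 3.80), against 2.15 (2.08 to 2.23) in the rest. This cutoff did not mean the same height in both lists. All desert peaks that passed it had at least 6 fragments, but 692 KO and 917 WT desert peaks had that many. For at least 6 fragments the desert ratio was 0.755 (0.683 to 0.834), against 0.667 (0.651 to 0.682) in the rest. Among peaks at the lowest common background of each list the desert ratio was 1.02 (0.971 to 1.08) and the ratio in the rest 0.982 (0.967 to 0.997). That filter kept 96.7% of KO but 80.4% of WT desert peaks, and 84.1% of KO but 65.5% of WT peaks in the rest. Removing more WT peaks by itself raises both ratios, so they do not show equal peak numbers at the same background. Which genotype had more desert peaks thus depended on how the peaks were filtered. The desert ratio was above that of the rest in each of these counts but that of 8 or more fragments. Fragment number and fragment size also differed between the IP libraries, and their part in the ratios was not tested.

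**Figure D4:**
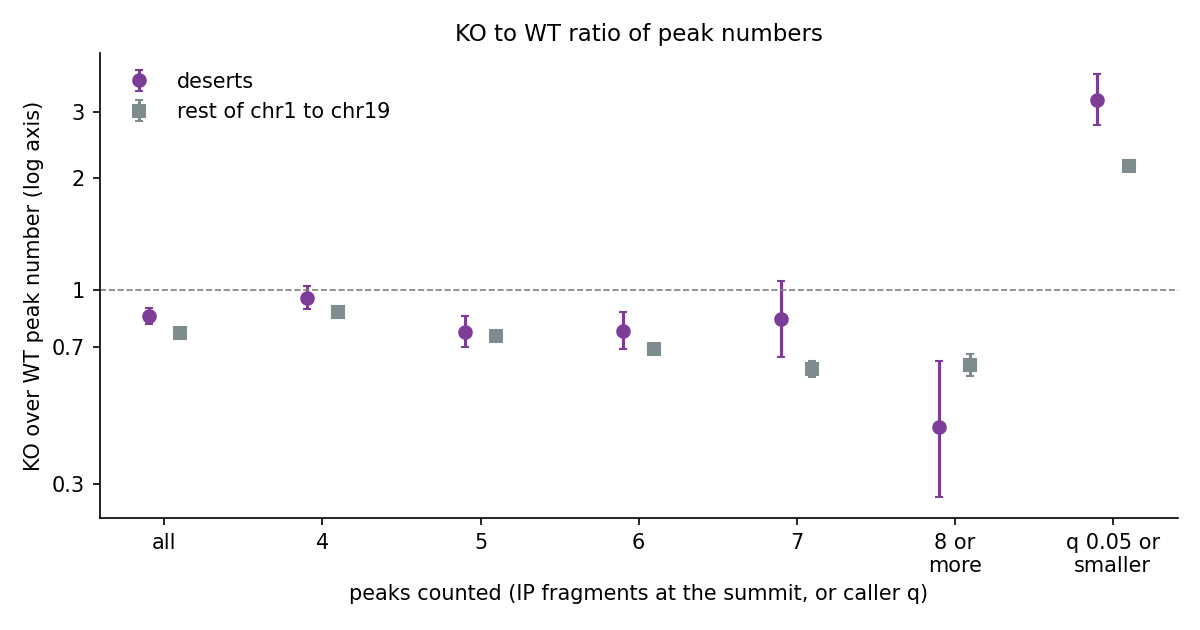
Number of KO peaks divided by the number of WT peaks (vertical log axis) in deserts (purple circles) and in the rest of chromosomes 1 to 19 (grey squares), for all peaks, by IP fragments at the summit, and at a caller q of 0.05 or smaller (horizontal axis), with 95% exact binomial intervals. Desert ratios are 0.850 for all peaks, 0.425 for 8 or more fragments and 3.24 at the caller q.

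Single deserts differed widely in peak number. The 72 deserts of at least 1 Mb made up 68.3% of desert length and all held peaks of both lists. Their KO density ran from 5.49 to 29.7 per Mb with a median of 13.8, and their WT density from 7.44 to 36.6 with a median of 16.8. Across these 72 deserts the densities of both lists moved together, with a Pearson r of 0.68 and a Spearman rho of 0.62. Over all 249 deserts, many of them short and with few peaks, the values were 0.26 and 0.32. The points share sequence and caller settings, deserts are not replicates, and no p was computed. Whole chromosomes also differed, from 11.2 to 23.2 KO and from 15.7 to 27.1 WT peaks per Mb outside deserts. The correlations did not take this into account. KO had fewer peaks than WT in 57 of the 72, the same number in 4 and more in 11. With all peaks counted the KO list was the smaller one, with a KO to WT ratio of 0.850 over all deserts and 0.764 in the rest. Of all 249 deserts, 12 had no peak in either list, the longest of them 216 kb.

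The densest desert in both lists lay on chromosome 3 (149489097 to 150937881) between Adgrl2 and Adgrl4, adhesion receptor genes of the latrophilin group. It held 43 KO and 53 WT peaks, 29.7 and 36.6 per Mb. The next in both lists, also on chromosome 3 (77210011 to 78562510), lay between Fstl5, a follistatin-like gene, and Rapgef2, an activator of Rap GTPases. It held 37 KO and 42 WT peaks, 27.4 and 31.1 per Mb. Both densities exceeded the means of gene bodies, 18.4 and 23.9, so a long desert was not always a sparse one. Chromosome 3 was itself the densest chromosome outside deserts, at 23.2 KO and 27.1 WT peaks per Mb, which both deserts also exceeded. None of their peaks was high, with at most 8 fragments at a summit.

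The third in KO lay on chromosome 2 (7896342 to 9357077) between Celf2, an RNA-binding protein gene, and Gata3, the T cell and developmental transcription factor gene. It held 36 KO and 20 WT peaks, a ratio of 1.80 (1.01 to 3.28). Of the 72 deserts it alone had an interval above 1. The intervals were not corrected for their number, and among 72 of them some can lie above or below 1 by counting error alone. The desert between Prmt6, a histone arginine methyltransferase gene, and the amylase gene Amy2b followed with 44 KO and 39 WT peaks. The fifth in KO, between the synaptic adhesion gene Slitrk5 and the glypican gene Gpc5, held 55 KO and 62 WT peaks.

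In WT the third to the fifth densest deserts lay between Serpinb8 and the cadherin gene Cdh7, between Cntnap5b and Cdh20, and between Zeb2, a transcription factor gene of neural crest development, and the activin receptor gene Acvr2a. They held 19, 52 and 53 KO peaks, against 38, 86 and 70 WT peaks. The first and the second of these were 2 of the 5 large deserts whose KO to WT interval lay below 1, at 0.500 (0.272 to 0.889) and 0.605 (0.420 to 0.863). The others were bordered by Igfbp7 and Adgrl3, by 1700015G11Rik and Luzp2, and by Trim52 and Slitrk1, with ratios of 0.488, 0.486 and 0.500, and were named after their values were seen. All 5 intervals included 0.764, the KO to WT ratio in the rest of chromosomes 1 to 19. All but that of Igfbp7 and Adgrl3, which ended at 0.841, also included the 0.850 of all deserts.

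**Figure D5:**
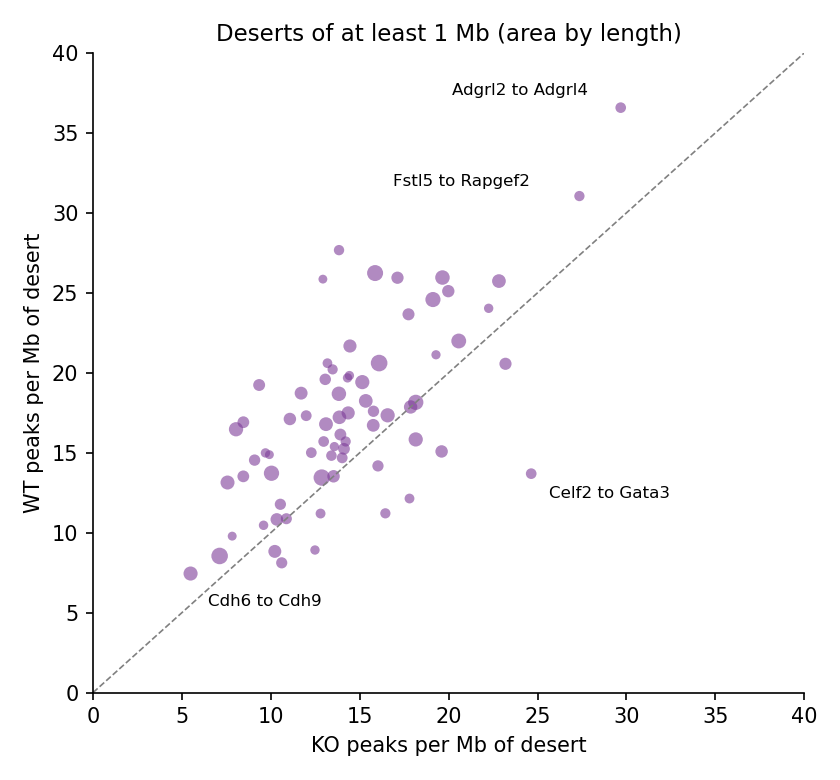
WT peaks per Mb (vertical axis) against KO peaks per Mb (horizontal axis) for the 72 deserts of at least 1 Mb, each a point whose area follows its length, with the line of equal density dashed. Most points lie above the line, the Adgrl2 to Adgrl4 desert is highest in both lists, at 29.7 in KO and 36.6 in WT, and the Celf2 to Gata3 desert lies furthest below the line.

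The longest deserts were not the densest. The longest, 3.54 Mb on chromosome 14 between the protocadherin genes Pcdh20 and Pcdh9, had 57 KO and 73 WT peaks, 16.1 and 20.6 per Mb. The second, 3.51 Mb on chromosome 18 between Celf4 and Pik3c3, the class III phosphatidylinositol 3-kinase gene, had 25 KO and 30 WT peaks, 7.12 and 8.54 per Mb. The third, between Olfm4 and Pcdh17, had 44 KO and 46 WT peaks. The fourth was the Cntnap5b to Cdh20 desert, and the fifth, between the teneurin gene Tenm3 and the lysosomal enzyme gene Aga, had 30 KO and 41 WT peaks.

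Cadherins and protocadherins, adhesion proteins prominent in the nervous system, bordered many of the large deserts. Of 137 border genes of the 72 deserts, 13 carried a Cdh or Pcdh symbol, 9.49%, against 0.462% of all protein-coding genes, clustered protocadherins included, a property of the genome and not of the peaks. The 13 deserts beside them had 13.8 KO peaks per Mb (12.6 to 15.2) and 18.1 WT peaks per Mb (16.6 to 19.6). The other 59 had 14.6 KO (13.9 to 15.4) and 17.3 WT peaks per Mb (16.5 to 18.1), so the intervals overlapped in both lists.

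A few sparse deserts were named after their values were seen. The desert on chromosome 12 between Klhl29 and Apob, which encodes the structural protein of the very low density lipoproteins made by the liver, held 17 KO and 13 WT peaks, 10.6 and 8.12 per Mb, the second lowest WT density of the 72 but not among the lowest in KO. The desert on chromosome 8 between Slc10a2, the bile acid uptake transporter gene of the ileum, and Efnb2 held 19 KO and 33 WT peaks, 7.56 and 13.1 per Mb, the third lowest KO density but not among the lowest in WT. The sparsest in both lists lay on chromosome 15 (13676408 to 16228549) between Cdh6 and Cdh9, with 14 KO and 19 WT peaks, 5.49 and 7.44 per Mb.

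High peaks were rare in deserts. More than 10 fragments were reached by 4 KO desert peaks, 0.131% (0.0358 to 0.336%), against 0.502% in the rest (0.433 to 0.578%) and 0.53% of all KO peaks, and by 4 WT desert peaks, 0.112% (0.0304 to 0.286%), against 0.299% in the rest (0.253 to 0.351%) and 0.305% of all WT peaks. These 8 peaks fell at 6 sites, 2 of them shared by both lists.

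The higher shared site lay on chromosome 16 between Adamts5, an aggrecan-cleaving protease gene, and N6amt1, a methyltransferase gene. KO had 29 fragments there (86820782 to 86821234) and WT had 44 (86820817 to 86821209). Scaled to IP fragment number, KO had 0.580 times the WT fragments (0.350 to 0.948). The caller's fold was nevertheless 16.9 in KO and 2.90 in WT, over a local background of 0.773 fragments in KO and 14.5 in WT. By caller p the KO peak ranked 20 of 41907 and the WT peak 69 of 54397. The site lies inside the lncRNA gene Gm32624.

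The other shared site lay in the otherwise sparse Cdh6 to Cdh9 desert, 1348 kb from the nearest protein-coding gene. KO had 27 fragments (chromosome 15, 14524447 to 14524855) and WT 14 (14524582 to 14524903), a scaled ratio of 1.70 (0.860 to 3.50). The backgrounds were 2.32 fragments in KO and 2.18 in WT, and the folds 8.43 and 4.72. The direction at this site was thus opposite to that at the chromosome 16 site, and its interval included 1.

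The other high KO peaks were both on chromosome 4. The first, between Manea and the ephrin receptor gene Epha7 (28176917 to 28177023), had 30 fragments over a background of 3.09, and the nearest WT peak, with 5 fragments, lay 6.81 kb away. The second, between Tusc1 and Caap1 (93844419 to 93844495), had 29 fragments over a background of 7.73, with the nearest WT peak 10.5 kb away. Among KO desert peaks at the lowest background the highest was at 46714352 to 46714428 on chromosome 5, between Lcorl and the axon guidance gene Slit2, with 10 fragments and a fold of 7.02. A KO peak of 9 fragments and a fold of 6.38 in the Cntnap5b to Cdh20 desert was the fifth by caller p.

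In WT a peak on chromosome 2 (98666750 to 98667194) between Lrrc4c, a synaptic adhesion gene, and Iftap stood apart with 12571 fragments. Its background was 8367.5 fragments and its fold 1.50, and the nearest KO peak, with 6 fragments, lay 9.02 kb away. No list of artefact-prone regions was used here to filter the peaks, and whether this site is one was not tested. This peak alone raised the mean of the WT desert peaks to 8.41 fragments, and without it the mean was 4.90. The mean of KO desert peaks was 4.80. A WT peak on chromosome 12 (93577080 to 93577184) between Gm40892 and Flrt2, which encodes a cell adhesion and guidance protein, had 20 fragments over a background of 2.18, and the nearest KO peak was 49.6 kb away. The WT peaks named next by the caller, in the Pcdh20 to Pcdh9 desert and between Izumo3 and Tusc1, had 10 fragments each at the lowest background, with folds of 6.50.

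Few desert peaks were found in both genotypes. In KO 15 desert peaks, 0.493% (0.276 to 0.811%), overlapped a WT peak by at least 1 bp, where 1.1% of all KO peaks did. In WT 15 did, 0.419% (0.234 to 0.690%), where 0.853% of all WT peaks did. Outside deserts the shares were 1.13% in KO (1.03 to 1.24%) and 0.867% in WT (0.788 to 0.953%), above both desert intervals. Sharing was thus rarer in deserts than elsewhere in both lists. Peaks were also sparser in deserts, which by itself makes overlap by coincidence rarer there. The overlap that random placement of the peaks would give was not computed. Whether sharing exceeded coincidence, in deserts or elsewhere, was therefore not tested.

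Besides the 2 sites above, the 13 shared sites were low, with 4 to 6 fragments in KO and 4 or 5 in WT. KO was higher by fragment number at 7 of them, equal at 5 and lower at 1, and the overlaps measured 9 to 161 bp. The first of these by fragment number lay between Olfm4 and Pcdh17 on chromosome 14 (80738605 to 80738676 in KO, 80738660 to 80738840 in WT) with 5 fragments in each list. At 2 sites KO had 6 fragments and WT 4, between Dsel and Cntnap5a on chromosome 1 and between Hace1 and the glutamate receptor gene Grik2 on chromosome 10. At 5 sites KO had 5 and WT 4, bordered by Adgrl2 and Adgrl4, Ptprd and Tyrp1, Ctnna3 and Reep3, Adamts5 and N6amt1, and Nudt12 and Efna5. At the 1 site with more WT fragments, between Gm44812 and Mctp2 on chromosome 7, KO had 4 and WT 5, and the other 4 sites had 4 in each list. Scaled ratios of all 13 ran from 0.704 to 1.32, and each interval included 1. Whether these 13 low overlaps were more than coincidence was not tested.

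Desert peaks lay further apart than others. Another peak of the same list was within 10 kb for 28.2% of KO desert peaks (26.6 to 29.9%), against 39.9% in the rest, and for 30.7% of WT desert peaks (29.2 to 32.2%), against 39.9%. Width did not set them apart. The median KO desert peak was 90 bp wide, against 92 bp in the rest, and the median WT desert peak 130 bp, as in the rest. The width difference between the lists cannot be told apart from their fragment sizes.

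Noncoding genes within deserts showed no detectable difference in density from desert stretches without genes. Stretches under genes other than protein-coding ones, 9.85% of desert length, had 14.9 KO peaks per Mb (13.3 to 16.7) and 17.2 WT peaks per Mb (15.4 to 19.1). Stretches without any annotated gene had 15.1 KO (14.6 to 15.7) and 17.8 WT peaks per Mb (17.2 to 18.5). Under lncRNA genes the densities were 16.1 in KO (14.0 to 18.3) and 17.2 in WT (15.1 to 19.6). All intervals overlapped, so a difference between these stretches was not detectable at this number of peaks.

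Immunoglobulin and T cell receptor loci, whose gene segments RefSeq does not class as protein-coding, filled 3 of the deserts. The desert with 121 segments of mainly the kappa light chain locus on chromosome 6 held 32 KO and 39 WT peaks, 14.4 and 17.5 per Mb. That of the heavy chain locus on chromosome 12, with 115 segments, held 18 KO and 26 WT peaks, 12.0 and 17.3 per Mb. That of the T cell receptor alpha locus on chromosome 14, with 72 segments, held 9 KO and 7 WT peaks. The highest had 9 fragments, and these loci are known to be rearranged and used in lymphocytes, not in hepatocytes.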

How the data were processed

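H3K23pr ChIP-seq was available as 1 peak list per genotype, KO and WT, with groups taken from the sample titles. The submitters' processing notes name cutadapt 1.9.3, Bowtie2 2.2.4 and the mm10 build. Per the file headers, MACS 2.1.1.20160309 called peaks on paired-end fragments, each IP against its own input, at a p cutoff of 0.001, keeping up to 2 identical fragments. Nothing was pooled in calling. The deposited pileup is a signal, the number of IP fragments over the summit. The deposited fold is the ratio of pileup to local background with a pseudocount of 1, and the local background was computed back from both; a background within 1% of the lowest common one was counted as equal to it. The −log10 p and q values deposited by the authors were used to rank and filter peaks; the headers say q would not be calculated, but the column holds values.

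Genes came from the RefSeq table of GRCm38.p6, with 20558 protein-coding genes placed on chromosomes 1 to 19; entries on unplaced scaffolds were left out. The first 3 Mb of each chromosome were left out of lengths, a chromosome was taken to end at its last gene or peak, and assembly gaps were not subtracted. Promoter and miRNA sequences are RefSeq's; no genome sequence was used, so no peak sequence is printed. Named deserts were the 5 longest and, per list, the 5 densest of at least 1 Mb; named peaks were the 5 highest by fragments and by caller p, and the shared pairs by fragments in the lower list, where 12 of 15 tied at 4, so that all pairs are described. The set of peaks, the lists and the rules were chosen with earlier results of these data known. Python 3.11.15 with scipy 1.17.1 gave the exact 95% intervals, and the functions for deserts and overlaps were tested on simulated data.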

Additional observations from a re-analysis of the deposited data

How the results depend on the processing

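Values below are given for KO and WT in that order. The desert to rest density ratio, 0.874 and 0.786, was 0.695 and 0.462 at a caller q of 0.05 or smaller and 0.718 and 0.663 with at least 5 fragments. With the first 3 Mb of chromosomes counted it was 0.696 and 0.626. That setting added desert length but no desert peaks, which stayed at 3045 and 3583. The ratio was 0.502 and 0.754 in deserts free of all RefSeq genes, which held only 20 KO and 39 WT peaks. It was 0.808 in KO beyond 1 Mb from genes and 0.819 in WT beyond 250 kb. With the strongest 5000 peaks of each list, an alternative chosen after seeing the data like the next, it was 0.640 and 0.475. With peaks at the lowest common background only, it was 1.01 and 0.965; fewer peaks were counted over the same length there. The KO to WT ratio of desert peaks, 0.850, was 0.762 with at least 5 fragments, 0.780 beyond 1 Mb and 0.513 in deserts free of all genes. It turned to 3.24 at the caller q, a cutoff that meant unlike heights in the lists. At the lowest background, a filter that removed a larger share of WT than of KO peaks, it was 1.02. With the strongest 5000 peaks it was 1.33, but that setting takes equally many peaks from each list. The 1.33 therefore compares the desert shares of the lists and is no turn in direction. Divided by the ratio of the rest, the KO to WT ratio of all desert peaks was 1.11. This ratio of ratios is above 1 wherever the desert ratio is above that of the rest, so it is no turn in direction either.

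The share of desert peaks with at least 6 fragments, 22.7% and 25.6%, was 24.3% and 27.8% beyond 250 kb, 35.0% and 20.5% in deserts free of all genes, and 100% in both lists at the caller q and among the strongest 5000, which held no lower desert peak. In WT it was 23.8% with a background of at most 2 times the lowest and 23.5% at the lowest. The share overlapping the other list, 0.493% and 0.419%, was 0.205% and 0.156% with at least 5 fragments, 0.0% and 0.0% in deserts free of all genes (intervals up to 16.8% and 9.03%), and 1.84% and 1.56% with summits within 500 bp. It was 0.815% in KO beyond 250 kb, and in WT 0.962% at the caller q and 0.971% among the strongest 5000, from 2 peaks each. Beside those explained above, the cause of these shifts was not tested. In the other 40 of 80 alternatives the value stayed within its interval, among them those without chromosome 1 and with V segments bounding deserts, which was also chosen after seeing the data. No paired analysis was possible because each genotype had 1 library. Most desert peaks had 4 or 5 fragments, which limits every count.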

Other observations

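Long noncoding genes of deserts that held the most KO peaks were Gm32647 on chromosome 7 (94042496 to 95326426), with 14 KO and 24 WT peaks, Gm13481 on chromosome 2, with 14 KO and 18 WT peaks, and 1700019L22Rik on chromosome 8, with 12 KO and 16 WT peaks. They span 1284, 395 and 800 kb. Peaks were counted over the whole gene here, and Gm13481 runs past the end of its desert, so some of its peaks can lie outside it. Gm32624 on chromosome 16, with a span of 60.5 kb and the shared site of 29 KO and 44 WT fragments, held 6 KO and 6 WT peaks. It too runs past the end of its desert. Gm39296 on chromosome 9 held 6 KO peaks and 1 WT peak, with at most 6 KO fragments and 4 WT fragments. These genes were chosen after their values were seen, and no comparison with other genes was made.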
